A study of Mus musculus with 12 samples.

Results

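The genes described are 38 members of homologous recombination and Fanconi repair, taken by symbol out of the 36229 gene identifiers of the deposited table. The rule that names them uses gene symbols and no expression value, but the members were chosen with earlier results of these data known. They were followed through RNA-seq of mouse embryonic fibroblasts of the C57BL/6 strain that had been pushed toward skeletal muscle. An adenovirus carrying MyoD, the master regulator of muscle fate, was given to every group for 24 h, followed by 72 h in fresh medium, with low serum (2%, from horse) and insulin at 10 µg/ml. The mixed cultures were Kdm5a-/-;Rb1-/- (called DKO), Rb1-/- (Rb1 KO), Kdm5a-/- (Kdm5a KO) and WT. The purified myotubes were DKO and WT, sorted from such cultures by size exclusion gravity after trypsin and kept for 24 h in conditioned medium before extraction. Each of the 6 groups had 2 libraries, 12 in all, and the design asks how loss of Rb1 or Kdm5a alters expression during induced myogenesis. Mixed libraries came from 1.7 µg of ribosome-depleted RNA and reads of 40 bases, and purified ones from 1.5 µg of oligo(dT)-selected RNA, with 36-base reads after 15 cycles of PCR. Whether libraries of a group came from separate embryos or cultures is not stated, so p-values measure only the spread between these libraries, which may be technical.

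Homologous recombination mends double-strand breaks by copying an intact sister chromatid, which exists only after replication. A broken end is resected to single-stranded DNA, BRCA2 and its partners prepare that strand, and it then invades the sister. The Fanconi pathway handles crosslinks between strands: a core complex attaches ubiquitin to the FANCD2 and FANCI pair, which calls in nucleases and then recombination. Many of these genes are transcribed with the cell cycle, through E2F factors that the retinoblastoma protein represses. Skeletal myotubes normally leave the cycle for good as they fuse, and Kdm5a encodes a histone H3 demethylase known to bind the retinoblastoma protein.

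Levels are normalised counts, meaning reads of a gene divided by the library's size factor. A change is the difference of group means of log2(normalised count + 1), ± its standard error, and this scale understates changes of genes with few reads. The words rose and fell are kept for genes whose Benjamini-Hochberg adjusted p from limma, over all genes tested, was under 0.05. A p above that threshold does not show that the groups were alike. Depth was 8688604 to 41309134 reads a library. The replicates of purified DKO stood apart, with a median absolute log2 difference of 0.496 between them, against 0.119 to 0.173 in the other 5 groups.

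The targeted genes kept reads in the knockout libraries. Kdm5a read 1318.8 and 1369.7 in DKO, 2094.3 and 1886.2 in Rb1 KO, 1087.9 and 1191.6 in Kdm5a KO, and 1636.8 and 1870.7 in WT mixed cultures. Rb1 read 5308.7 and 5661.7 in DKO, 4457.3 and 4447.7 in Rb1 KO, 5079.4 and 5192.8 in Kdm5a KO, and 5616.2 and 5649.5 in WT mixed cultures. In purified myotubes Kdm5a read 787.1 and 614.3 in DKO and 3032.5 and 2775.4 in WT. Rb1 read 2356.4 and 2104.4 in purified DKO and 3499.5 and 3217.6 in purified WT. The deleted parts are not given in the sources used here and Rb1 shares exons with other genes, so a whole-gene level does not check its label. Xist, the RNA of the silenced X, lay at 3109.9 to 9881.0 in the 6 libraries lacking Kdm5a and at 0.0 to 2.5 in the other 6, with the Y-linked Ddx3y the reverse. Female with male cells, and Kdm5a loss, therefore cannot be told apart in DKO against WT (mixed or purified), DKO against Rb1 KO and Kdm5a KO against WT, while Rb1 KO against WT and DKO against Kdm5a KO compare cells of the same sex. Muscle genes were read in every mixed culture: embryonic myosin Myh3 read 20397.3 and 21203.5 in DKO, 4384.4 and 4677.6 in Rb1 KO, 99141.3 and 107426.9 in Kdm5a KO and 77084.5 and 76911.5 in WT. The proliferation marker Mki67 read 5776.8 and 6060.7 in DKO, 2479.1 and 2375.9 in Rb1 KO, 11.8 and 40.6 in Kdm5a KO, and 44.3 and 20.3 in WT.

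Promoter sequences are shown first because E2F is the textbook link between the retinoblastoma protein and this pathway. RefSeq promoters (GRCm38.p6, 250 bases before and 50 after the start) matched 31 of the 38 genes. The letters searched, on both strands, were the E2F forms TTTGGCGC, TTTCCCGC, TTTCGCGC and TTTGCCGC, and the short form TTCCCGCC, which can overlap them. Each line below gives 120 bases that end at or before the start, 5′ to 3′ on the gene's strand, with matches in capitals (GCGGGAAA, GCGCGAAA and GGCGGGAA are forms read on the other strand). The first 6 genes rose after loss of Rb1 and carry a match. Brip1 and Dna2 rose and carry none in the window, and Xrcc3 fell and carries none.
Bard1: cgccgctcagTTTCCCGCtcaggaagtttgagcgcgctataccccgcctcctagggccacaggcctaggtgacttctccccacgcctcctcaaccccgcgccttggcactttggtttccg
Topbp1: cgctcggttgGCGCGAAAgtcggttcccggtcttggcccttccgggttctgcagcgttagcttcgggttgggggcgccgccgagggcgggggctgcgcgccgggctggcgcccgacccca
Brca2: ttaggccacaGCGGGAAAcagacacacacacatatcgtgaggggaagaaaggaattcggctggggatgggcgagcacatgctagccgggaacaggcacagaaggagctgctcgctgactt
Fancg: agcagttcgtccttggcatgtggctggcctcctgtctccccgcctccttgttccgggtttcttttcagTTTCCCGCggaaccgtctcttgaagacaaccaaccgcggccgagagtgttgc
Fancm: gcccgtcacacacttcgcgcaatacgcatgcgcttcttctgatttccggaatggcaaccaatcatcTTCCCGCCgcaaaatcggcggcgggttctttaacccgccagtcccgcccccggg
Fancb: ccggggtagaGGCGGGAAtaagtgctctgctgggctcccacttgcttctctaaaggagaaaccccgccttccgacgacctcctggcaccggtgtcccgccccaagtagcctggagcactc
Brip1: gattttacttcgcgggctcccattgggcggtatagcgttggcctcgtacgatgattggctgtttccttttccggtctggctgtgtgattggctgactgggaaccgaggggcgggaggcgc
Dna2: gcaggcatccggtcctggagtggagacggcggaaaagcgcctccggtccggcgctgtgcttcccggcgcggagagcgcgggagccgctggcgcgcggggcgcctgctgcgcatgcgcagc
Xrcc3: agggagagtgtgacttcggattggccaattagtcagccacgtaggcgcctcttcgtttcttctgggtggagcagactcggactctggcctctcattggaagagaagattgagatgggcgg
Their positions are Bard1 chr1:71103072-71103191 (minus strand), Topbp1 chr9:103305188-103305307 (plus strand), Brca2 chr5:150522443-150522562 (plus strand), Fancg chr4:43010302-43010421 (minus strand), Fancm chr12:65075483-65075602 (plus strand), Fancb chrX:164980409-164980528 (plus strand), Brip1 chr11:86201194-86201313 (minus strand), Dna2 chr10:62946909-62947028 (plus strand) and Xrcc3 chr12:111813880-111813999 (minus strand).

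Either E2F form was present in 12 of 31 member promoters (38.7%), against 1206 of 27025 promoters in the whole table (4.46%). The 12 were Bard1, Brca2, Rad51ap1, Rad51c, Fancb, Fancg, Fancm, Polq, Topbp1, Chek1, Chek2 and Msh6. The longer forms alone were in 7 members (22.6%, against 2.6% of all promoters) and the short form in 7 (22.6%, against 2.52%). The CHR letters TTTGAA, a cell-cycle element, were in 3 members (9.68%, against 20.2%), and the NF-Y letters CCAAT in 16 (51.6%, against 41.1%). A match of letters is a description of a window, not a binding site.

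In Rb1 KO cultures 32 of the 38 genes rose and 1 fell against WT, where 36.8% of the 17199 genes tested rose and 34.3% fell, 71.1% in either direction. The median change of the members was 1.80, against 0.03 over all genes (3.05 over the 20 members whose exons overlap no other gene), and 30 of them differed by at least 2-fold, against 7195 genes overall. In DKO against Kdm5a KO, the same loss of Rb1 in cells without Kdm5a, 34 rose and 2 fell (33.7% and 33.4% of all genes, 67.2% in either direction), with a median of 2.43 against 0.01. In DKO against WT, which shares libraries with both, 33 rose and 1 fell (34% and 33.9% of all genes, 67.9% in either direction), with a median of 2.64 against -0.00. All 38 genes passed the filter on low values, 4 of them (Esco2, Exo1, Neil3 and Palb2) with a WT mean under 10, so that they could pass through the groups where they were high.

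The summed level of the 38 genes was 41215.9 and 42316.2 in DKO, 34583.4 and 33674.3 in Rb1 KO, 9519.5 and 9757.0 in Kdm5a KO, and 9656.6 and 9615.9 in WT mixed cultures. In purified myotubes it was 32415.7 and 27402.7 in DKO, against 9000.9 and 8652.8 in WT. Every library without Rb1 thus held more reads of these genes than any library with Rb1, and the Kdm5a KO and WT sums overlapped. In whole cultures, fewer cells of a kind and less RNA per cell cannot be told apart.

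**Figure D1:**
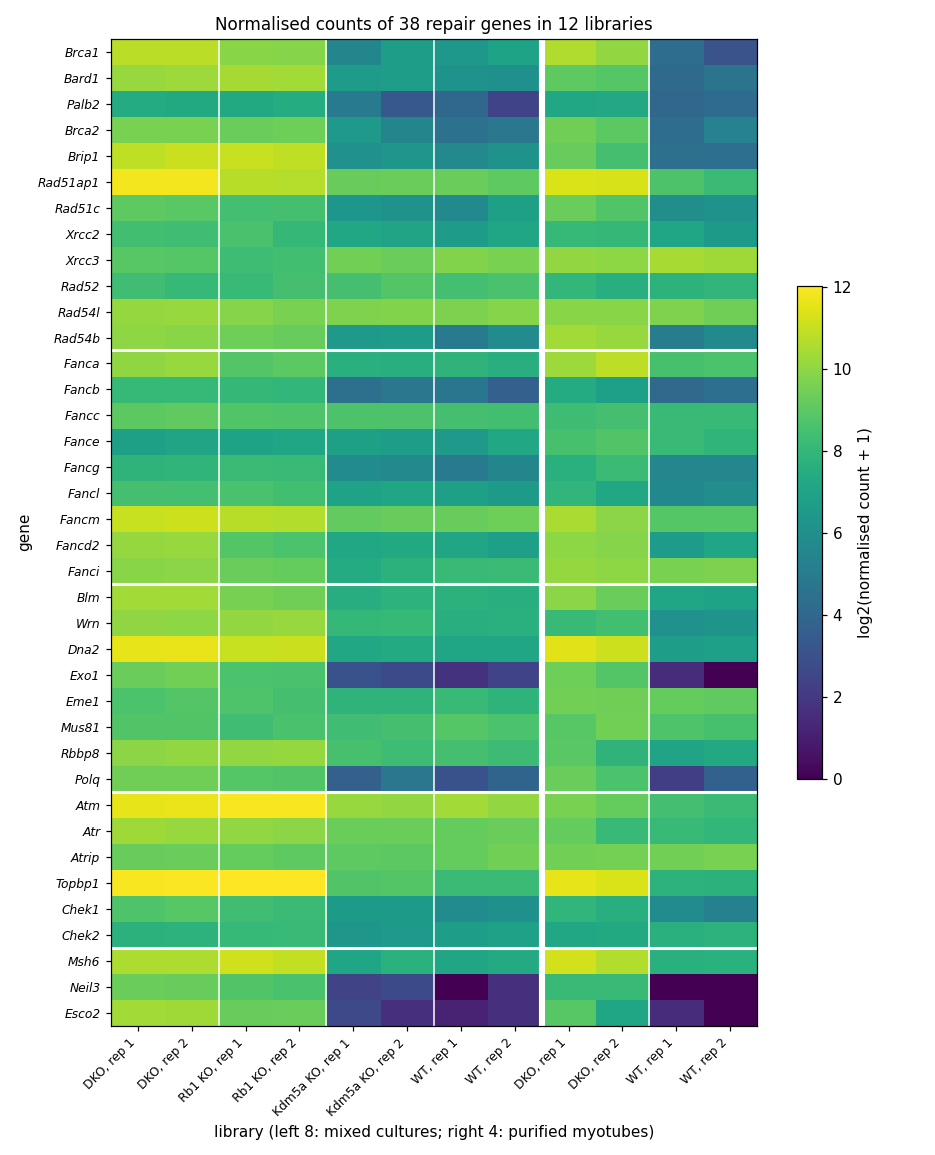
Heat map of log2(normalised count + 1) for 38 repair genes (rows, grouped by role from recombination mediators at the top to Esco2 at the bottom) in 12 libraries (columns, 8 mixed and 4 purified). Most genes are higher in DKO and Rb1 KO than in Kdm5a KO and WT, and Xrcc3 is lower there in the mixed cultures.

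Of the 12 recombination mediators, 9 rose and 1 fell in Rb1 KO against WT (median change 2.67), and 10 rose and 2 fell in DKO against Kdm5a KO (median 3.0). Of all genes, 36.8% rose and 34.3% fell in the first comparison and 33.7% and 33.4% in the second. These shares stand beside the counts of each role below as well. Brca1, the ubiquitin ligase that favours resection, read 1747.5 and 1744.6 in DKO, 958.7 and 922.3 in Rb1 KO, 45.2 and 102.9 in Kdm5a KO, and 84.9 and 126.8 in WT. The groups with and without Rb1 did not overlap, and DKO lay above Rb1 KO. Brca1 rose by 3.17 ± 0.29 in Rb1 KO against WT (limma adjusted p = 5.04e-07) and by 4.66 ± 0.29 in DKO against Kdm5a KO (adjusted p = 1.71e-08). Bard1, its obligate partner, read 1166.7 and 1248.0 in DKO, 1358.4 and 1298.8 in Rb1 KO, 100.4 and 107.1 in Kdm5a KO, and 68.2 and 64.0 in WT. Unlike Brca1, its highest values were in Rb1 KO, where it rose by 4.31 ± 0.12 (19.8-fold, adjusted p = 8.3e-12) against WT.

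Brca2, a mediator that acts on resected ends, read 792.2 and 788.2 in DKO, 644.1 and 668.0 in Rb1 KO, 91.3 and 44.1 in Kdm5a KO, and 21.5 and 26.6 in WT. Its 4 groups did not overlap in that order. The rise was 4.72 ± 0.27 in Rb1 KO against WT (limma adjusted p = 5.72e-09) and 3.62 ± 0.27 in DKO against Kdm5a KO (adjusted p = 9.38e-08). Brip1, a helicase that binds BRCA1, rose most of the mediators in Rb1 KO. It read 1912.6 and 2138.9 in DKO, 2047.0 and 1912.5 in Rb1 KO, 66.9 and 82.6 in Kdm5a KO, and 50.3 and 71.4 in WT, so DKO and Rb1 KO overlapped. The change against WT was 5.02 ± 0.16 in Rb1 KO (32.5-fold, adjusted p = 3.43e-11). Palb2, the bridge between BRCA1 and BRCA2, was low throughout, at 170.4 and 160.0 in DKO, 156.6 and 175.6 in Rb1 KO, 28.9 and 9.1 in Kdm5a KO, and 15.6 and 4.3 in WT, and rose by 4.16 ± 0.54 in Rb1 KO against WT (adjusted p = 1.58e-05).

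Rad51ap1, which stimulates strand invasion, had the highest level per kb of exon of all members in DKO (744 normalised counts per kb). It read 3564.4 and 3599.0 in DKO, 1720.3 and 1679.9 in Rb1 KO, 594.1 and 632.9 in Kdm5a KO, and 617.4 and 531.9 in WT. DKO lay above Rb1 KO, and Kdm5a KO and WT overlapped. The change was 1.57 ± 0.08 in Rb1 KO against WT (limma adjusted p = 2.62e-09) and 2.54 ± 0.08 in DKO against Kdm5a KO (adjusted p = 6.89e-11). Rad54b, a DNA translocase of the strand-exchange step, read 1015.8 and 955.3 in DKO, 672.4 and 601.9 in Rb1 KO, 89.5 and 98.7 in Kdm5a KO, and 29.9 and 54.4 in WT, and rose by 3.95 ± 0.22 in Rb1 KO against WT (adjusted p = 5.5e-09). Its 4 groups did not overlap. Overlaps of Rad54b with exons of Fsbp and Gm11832 add up to 2075 bases, beside 5782 exon bases of its own, and the part of shared reads was not tested. Rad51c and Xrcc2, mediators of strand exchange, rose in Rb1 KO against WT by 2.17 ± 0.27 and 1.41 ± 0.21 (adjusted p = 9.94e-06 and 5.1e-05).

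Xrcc3, another such mediator, was the 1 member that fell in Rb1 KO against WT. It read 472.4 and 462.2 in DKO, 317.3 and 337.6 in Rb1 KO, 707.2 and 616.1 in Kdm5a KO, and 853.1 and 793.1 in WT. The 4 groups did not overlap. It fell by 1.33 on the log2 scale in Rb1 KO against WT (SE 0.10, limma adjusted p = 1.14e-07), by 0.50 in DKO against Kdm5a KO (adjusted p = 0.000876) and by 0.81 in DKO against WT (adjusted p = 1.4e-05). Its exons overlap by 12 bases those of Klc1, a kinesin light chain gene, which read 2366.6 and 2507.5 in DKO, 1440.8 and 1695.3 in Rb1 KO, 4320.7 and 4251.9 in Kdm5a KO, and 5605.4 and 5264.7 in WT. The order of the 4 groups was the same for both genes.

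Rad54l, the main RAD54 translocase, and Rad52, which anneals single strands, did not pass in Rb1 KO against WT. Rad54l had a log2 difference of -0.03 ± 0.09 there and rose by 0.39 ± 0.09 in DKO against Kdm5a KO (limma adjusted p = 0.00221), with 1184 of its 7706 exon bases shared with Lrrc41. Rad52 had a difference of -0.20 ± 0.15 in Rb1 KO against WT. It fell by 0.46 in DKO against Kdm5a KO (adjusted p = 0.0177), with values of 319.3 and 269.0 in DKO against 360.8 and 452.3 in Kdm5a KO. That call was lost without DKO replicate 2 (-0.34, adjusted p = 0.156) and without Kdm5a KO replicate 2 (-0.30, adjusted p = 0.173).

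Of the 9 Fanconi core and FANCD2-FANCI genes, 8 rose and none fell in Rb1 KO against WT (median change 1.39), and likewise 8 rose and none fell in DKO against Kdm5a KO (median 2.14). Fancd2, the ubiquitin acceptor of the pathway, read 1114.7 and 1150.4 in DKO, 441.5 and 397.3 in Rb1 KO, 145.6 and 155.4 in Kdm5a KO, and 138.8 and 108.7 in WT. The groups did not overlap, and DKO stood far above Rb1 KO. The rise was 1.76 ± 0.14 in Rb1 KO against WT (limma adjusted p = 1.58e-07) and 2.90 ± 0.14 in DKO against Kdm5a KO (adjusted p = 2.09e-09). Fanca, a core complex subunit, read 1048.9 and 1158.7 in DKO, 453.7 and 519.5 in Rb1 KO, 196.2 and 191.1 in Kdm5a KO, and 224.9 and 191.9 in WT. It rose by 1.22 ± 0.12 and 2.50 ± 0.12 in those comparisons (adjusted p = 1.64e-06 and 2.6e-09), while Zfp276, with which it shares 920 exon bases, read 412.9 and 415.2 in DKO, 317.3 and 353.9 in Rb1 KO, 556.1 and 574.1 in Kdm5a KO, and 676.0 and 637.4 in WT.

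Fanci, the partner of FANCD2, read 945.3 and 985.7 in DKO, 627.9 and 589.2 in Rb1 KO, 166.4 and 210.7 in Kdm5a KO, and 287.2 and 289.9 in WT. Kdm5a KO was the lowest of the 4 groups, which did not overlap. The rise was 1.07 ± 0.12 in Rb1 KO against WT (limma adjusted p = 5.06e-06) and 2.36 ± 0.12 in DKO against Kdm5a KO (adjusted p = 3.89e-09). Fancb, an X-linked core subunit, rose most of this group in Rb1 KO. It read 265.1 and 265.5 in DKO, 260.6 and 246.2 in Rb1 KO, 20.8 and 25.9 in Kdm5a KO, and 25.1 and 11.7 in WT, and the change against WT was 3.80 ± 0.32 in Rb1 KO (adjusted p = 2.37e-07). DKO and Rb1 KO lay close together and Kdm5a KO overlapped WT.

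Fancg and Fancl, a core scaffold and the core ubiquitin ligase, rose by 2.94 ± 0.23 and 1.77 ± 0.16 in Rb1 KO against WT (limma adjusted p = 1.18e-07 and 5.75e-07), and Fancm, the translocase that anchors the core to DNA, by 1.39 ± 0.08 (adjusted p = 5.62e-09). Fancl shares 462 exon bases with Vrk2, which read 558.1 and 587.5 in DKO, 777.8 and 807.4 in Rb1 KO, 155.5 and 145.6 in Kdm5a KO, and 81.4 and 129.0 in WT. Fancc, a core subunit, rose little, by 0.30 ± 0.10 in Rb1 KO against WT (adjusted p = 0.0207). That call was lost without Rb1 KO replicate 1 (0.28) or WT replicate 2 (0.24). It was also lost by DESeq2 (0.27, adjusted p = 0.09) and with only Rb1 KO and WT fitted (0.30, limma adjusted p = 0.0657). In DKO against Kdm5a KO Fancc rose by 0.39 ± 0.10 (limma adjusted p = 0.00494), a call lost without DKO replicate 2 (0.36). Fance, which contacts FANCD2, did not pass. It read 113.6 and 129.2 in DKO, 125.6 and 132.1 in Rb1 KO, 113.0 and 104.3 in Kdm5a KO, and 86.1 and 143.9 in WT, a difference of 0.21 ± 0.24 in Rb1 KO against WT. The sign rested on WT replicate 1, without which the difference was -0.16, while without WT replicate 2 it passed at 0.58 (adjusted p = 0.0415).

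**Figure D2:**
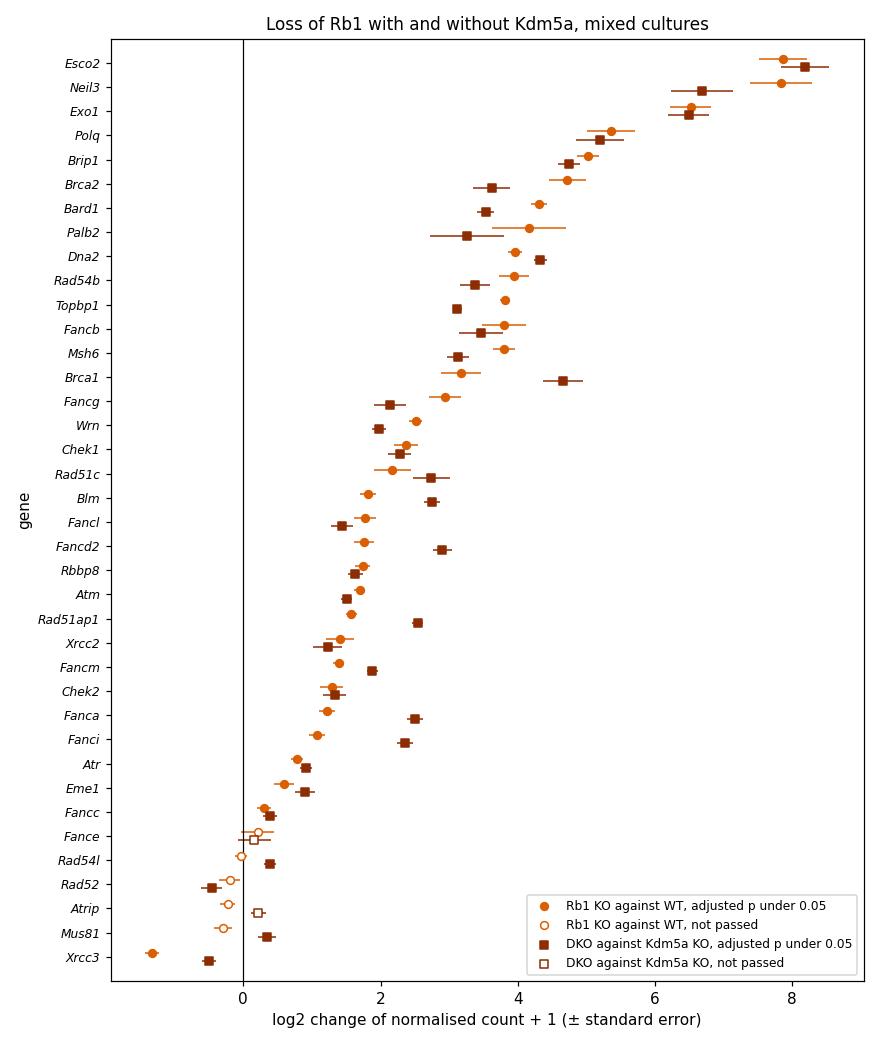
Log2 change ± standard error of each of the 38 genes for Rb1 KO against WT (circles) and DKO against Kdm5a KO (squares), with filled symbols for an adjusted p under 0.05. Esco2, Neil3 and Exo1 lie farthest to the right in both, and Xrcc3 lies left of 0 in both.

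All 8 helicase, nuclease and end-processing genes rose in DKO against Kdm5a KO (median change 2.36), and 7 of 8 rose in Rb1 KO against WT (median 2.17). Blm, the helicase that dissolves double Holliday junctions, read 1336.6 and 1323.5 in DKO, 752.1 and 690.6 in Rb1 KO, 180.0 and 215.6 in Kdm5a KO, and 211.8 and 194.0 in WT. DKO was clearly above Rb1 KO and Kdm5a KO overlapped WT. Blm rose by 1.82 ± 0.12 in Rb1 KO against WT (limma adjusted p = 1.82e-08) and by 2.75 ± 0.12 in DKO against Kdm5a KO (adjusted p = 6.69e-10). Wrn, its RecQ relative, read 1042.6 and 1001.9 in DKO, 1070.8 and 1164.9 in Rb1 KO, 254.1 and 262.5 in Kdm5a KO, and 191.4 and 200.4 in WT, with a rise of 2.51 ± 0.10 in Rb1 KO against WT (adjusted p = 1.96e-10). Here Rb1 KO was the highest group.

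Long-range resection depends on Exo1 and Dna2, and both rose steeply. Exo1, an exonuclease, read 619.7 and 709.5 in DKO, 394.3 and 378.3 in Rb1 KO, 7.2 and 5.6 in Kdm5a KO, and 2.4 and 4.3 in WT. Over the group, 710 reads in Rb1 KO stood against 6 in WT, a ratio of 114 (95% exact counting interval 52 to 311, counting error only). Dna2, a nuclease and helicase, read 3062.0 and 3144.7 in DKO, 2082.1 and 2140.6 in Rb1 KO, 142.0 and 164.5 in Kdm5a KO, and 135.2 and 134.3 in WT. Its rise of 3.96 ± 0.10 in Rb1 KO against WT was 15.6-fold (limma adjusted p = 3.02e-12). Rbbp8, the factor that starts resection, rose by 1.74 ± 0.11 (adjusted p = 1.92e-08).

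Polq, the polymerase of error-prone end joining, read 690.1 and 689.8 in DKO, 461.8 and 439.9 in Rb1 KO, 11.8 and 26.6 in Kdm5a KO, and 7.2 and 13.9 in WT, and rose by 5.36 ± 0.35 in Rb1 KO against WT (limma adjusted p = 2.5e-08). Mus81 and Eme1 together form a nuclease that cuts joint molecules. Eme1 rose by 0.59 ± 0.15 (adjusted p = 0.00295) in Rb1 KO against WT. Mus81 read 440.3 and 432.6 in DKO, 318.7 and 383.8 in Rb1 KO, 323.7 and 361.3 in Kdm5a KO, and 467.8 and 393.3 in WT. It had a log2 difference of -0.29 ± 0.13 in Rb1 KO against WT (adjusted p = 0.0629), and passed without Rb1 KO replicate 2 (-0.43, adjusted p = 0.0275) or WT replicate 2 (-0.42, adjusted p = 0.0238). In DKO against Kdm5a KO it rose by 0.35 ± 0.13 (adjusted p = 0.032), a call lost without either DKO library (0.34 and 0.36) or Kdm5a KO replicate 1 (0.27). Both share exons with neighbours, Eme1 with Lrrc59 and Mrpl27 and Mus81 with Efemp2.

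Of the 6 checkpoint genes, 5 rose and none fell in Rb1 KO against WT (median change 1.50) and in DKO against Kdm5a KO (median 1.42). Topbp1, the activator of ATR, read 3798.5 and 3942.0 in DKO, 4064.4 and 4187.0 in Rb1 KO, 437.7 and 449.5 in Kdm5a KO, and 296.7 and 291.0 in WT. The 4 groups did not overlap, with Rb1 KO highest. Its rise of 3.81 ± 0.07 in Rb1 KO against WT (14-fold, limma adjusted p = 2.68e-13) had the smallest adjusted p of the 38. Atm, the kinase that answers double-strand breaks, was already well read in WT. It read 3079.9 and 3317.0 in DKO, 3872.6 and 3878.4 in Rb1 KO, 1137.6 and 1099.2 in Kdm5a KO, and 1307.7 and 1079.8 in WT, and rose by 1.70 ± 0.08 in Rb1 KO against WT (adjusted p = 1.43e-09). Atr, the kinase of stalled forks, rose by 0.78 ± 0.09 (adjusted p = 4.61e-06).

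Chek1, the effector kinase of ATR, read 425.0 and 479.2 in DKO, 326.8 and 297.8 in Rb1 KO, 92.2 and 91.7 in Kdm5a KO, and 55.0 and 64.0 in WT. The groups did not overlap and fell in that order. Its rise was 2.37 ± 0.17 in Rb1 KO against WT (limma adjusted p = 4.83e-08) and 2.28 ± 0.17 in DKO against Kdm5a KO (adjusted p = 9.14e-08). Chek2, the effector of ATM, read 214.1 and 217.7 in DKO, 267.4 and 287.8 in Rb1 KO, 81.4 and 88.9 in Kdm5a KO, and 107.7 and 118.3 in WT, with a rise of 1.29 ± 0.17 in Rb1 KO against WT (adjusted p = 1.61e-05). Atrip, the partner of ATR, read 594.4 and 619.9 in DKO, 577.9 and 526.8 in Rb1 KO, 530.8 and 512.5 in Kdm5a KO, and 586.3 and 719.5 in WT. It had a log2 difference of -0.23 ± 0.11 in Rb1 KO against WT (adjusted p = 0.0738, and -0.38 at 0.00886 without WT replicate 1) and by 0.22 ± 0.11 in DKO against Kdm5a KO (adjusted p = 0.0978, and 0.048 and 0.05 without WT replicate 1 and 2). Reads of Atrip equalled those of Trex1, an exonuclease gene that overlaps it, within 2 reads in all 12 libraries, so the pair is a single measurement and its share for Atrip is unknown.

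The remaining 3 genes act in cohesion, base excision and mismatch repair, and Esco2 and Neil3 had the largest rises of the 38 in Rb1 KO against WT. Esco2, the acetyltransferase that locks cohesin onto sister chromatids, read 1308.2 and 1295.0 in DKO, 598.2 and 627.2 in Rb1 KO, 5.4 and 2.1 in Kdm5a KO, and 1.2 and 2.1 in WT. Counting 1136 reads in Rb1 KO against 3 in WT gave a ratio of 364 (95% interval 124 to 1767.7). Neil3, a glycosylase that also unhooks crosslinks, read 650.2 and 593.0 in DKO, 430.7 and 382.0 in Rb1 KO, 4.5 and 5.6 in Kdm5a KO, and 0.0 and 2.1 in WT, with 741 reads in Rb1 KO against 2 in WT (ratio 356, interval 98.2 to 2946.3). Both were close to silent wherever Rb1 was present. Msh6, the mismatch-recognition subunit, read 1508.6 and 1495.3 in DKO, 2263.1 and 1968.6 in Rb1 KO, 140.2 and 207.9 in Kdm5a KO, and 140.0 and 162.0 in WT, and rose by 3.80 ± 0.16 in Rb1 KO against WT (limma adjusted p = 2.97e-10).

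Promoter letters and calls stood as follows. All 12 members with E2F letters rose in Rb1 KO against WT (median change 3.37), while of the 19 without, 13 rose, 1 fell and 5 did not pass (median 1.07). Among all tested genes with a promoter in the table, 53.1% of 870 with the letters rose and 38% of 10700 without. In DKO against Kdm5a KO the same 12 members rose (median 2.93), and of the 19 without, 15 rose, 2 fell and 2 did not pass (median 1.44), beside 51% and 34.2% of all genes. In purified DKO against WT 11 of the 12 rose (median 2.93), and 9 of the 19 without (median 0.67), with no falls, beside 32.7% and 21.3% of all genes. Rbbp8, Xrcc2, Rad54b, Fancd2, Wrn, Esco2 and Exo1 had no promoter matched and enter none of these counts. All of them rose in Rb1 KO against WT. The counts are over promoters and no test was made of them.

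DKO and Rb1 KO cultures, both without Rb1, differ in Kdm5a and in sex. In DKO against Rb1 KO, 14 rose, 2 fell and 22 did not pass, with a median of 0.29, where 23.1% of all genes rose and 24.2% fell (47.3% in either direction, median -0.01). Of the 4 members that rose at least 2-fold, Esco2 is given with the less firm calls, and the others were Fancd2 at 1.43 ± 0.14 (2.7-fold, limma adjusted p = 3.87e-06), Fanca at 1.18 ± 0.12 (adjusted p = 7.08e-06) and Rad51ap1 at 1.07 ± 0.08 (adjusted p = 4.02e-07). Blm rose by 0.88 ± 0.12 (adjusted p = 4.92e-05), Fanci by 0.67 ± 0.12 (adjusted p = 0.000719) and Dna2 by 0.56 ± 0.10 (adjusted p = 0.000434). Of the Fanconi group 5 of 9 rose, the other two being Fancm at 0.38 ± 0.08 and Fancc at 0.32 ± 0.10 (adjusted p = 0.00155 and 0.0225). Xrcc3 rose by 0.51 ± 0.10 (adjusted p = 0.00127), lying below WT in both groups, and Rad54l by 0.41 ± 0.09 (adjusted p = 0.00305).

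Less firm were Brca1 at 0.89 ± 0.29 (limma adjusted p = 0.0217), Esco2 at 1.09 ± 0.35 (0.0228), Rad54b at 0.63 ± 0.22 (0.034) and Chek1 at 0.53 ± 0.17 (0.0203), and the falls of Msh6 by 0.49 (0.0214) and Atm by 0.28 (0.0153). Brca1, Esco2, Rad54b and Fancc lost the call without any 1 of the 4 libraries contrasted (changes of 0.86 to 0.92, 1.05 to 1.12, 0.55 to 0.71 and 0.29 to 0.35). With no filter on the mean, Brca1 and Rad54b did not pass either (limma adjusted p = 0.0561 and 0.0661). Msh6 lost it without either DKO library or Rb1 KO replicate 1 (-0.50 to -0.39), Chek1 without either DKO library or Rb1 KO replicate 2 (0.45 to 0.62), and Atm without DKO replicate 1 or either Rb1 KO library (-0.28 to -0.22). The count of 16 genes called was 9 without DKO replicate 1, 10 without DKO replicate 2 and 25 when only DKO and Rb1 KO were fitted.

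With Rb1 intact, Kdm5a KO against WT showed 7 rises and 2 falls (median 0.18, and 0.35 over the 20 members whose exons overlap no other gene), where 13.4% of all genes rose and 13.8% fell (27.2% in either direction, or 3057 genes in place of 4685 without Kdm5a KO replicate 1). Brca2 rose by 1.37 ± 0.27 (limma adjusted p = 0.00245), Rad54b by 1.2 ± 0.22 (adjusted p = 0.00177), Bard1 by 0.64 ± 0.12 (adjusted p = 0.00171) and Topbp1 by 0.59 ± 0.07 (adjusted p = 5.75e-05). These genes stayed far below their levels in cells without Rb1: Topbp1 at 437.7 and 449.5 in Kdm5a KO compares with 4064.4 and 4187.0 in Rb1 KO. Wrn rose by 0.40 ± 0.10 (adjusted p = 0.0106), Chek1 by 0.62 ± 0.17 (0.0161) and Neil3 by 1.77 ± 0.45 (0.0119), the last on 13 reads in Kdm5a KO against 2 in WT (ratio 4.55, 95% counting interval 1.03 to 41.5). Neil3 met the filter on low values through DKO and Rb1 KO, and its call in Kdm5a KO was lost by edgeR (2.12, adjusted p = 0.074) and DESeq2 (2.20, adjusted p = 0.138). Fanci fell by 0.62 (SE 0.12, adjusted p = 0.00276) and Xrcc3 by 0.32 (SE 0.10, adjusted p = 0.0377).

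The Xrcc3 call in Kdm5a KO was lost without either DKO library (-0.32), Kdm5a KO replicate 2 (-0.22) or WT replicate 1 (-0.26). The Chek1 call was lost without either Kdm5a KO library (0.62 and 0.63) or WT replicate 1 (0.52), and those of Wrn (0.37) and Neil3 (1.64) without Kdm5a KO replicate 2. Without WT replicate 2, 15 of the 38 genes passed in place of 9, and with only Kdm5a KO and WT fitted, 4 of 35 tested. Of the 7 rises, Brca2, Rad54b, Bard1 and Topbp1 passed with each library left out in turn, but Bard1 did not pass with only Kdm5a KO and WT fitted (0.64, limma adjusted p = 0.089), nor did Wrn (0.0967), Chek1 (0.116) or, as a fall, Xrcc3 (0.056).

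**Figure D3:**
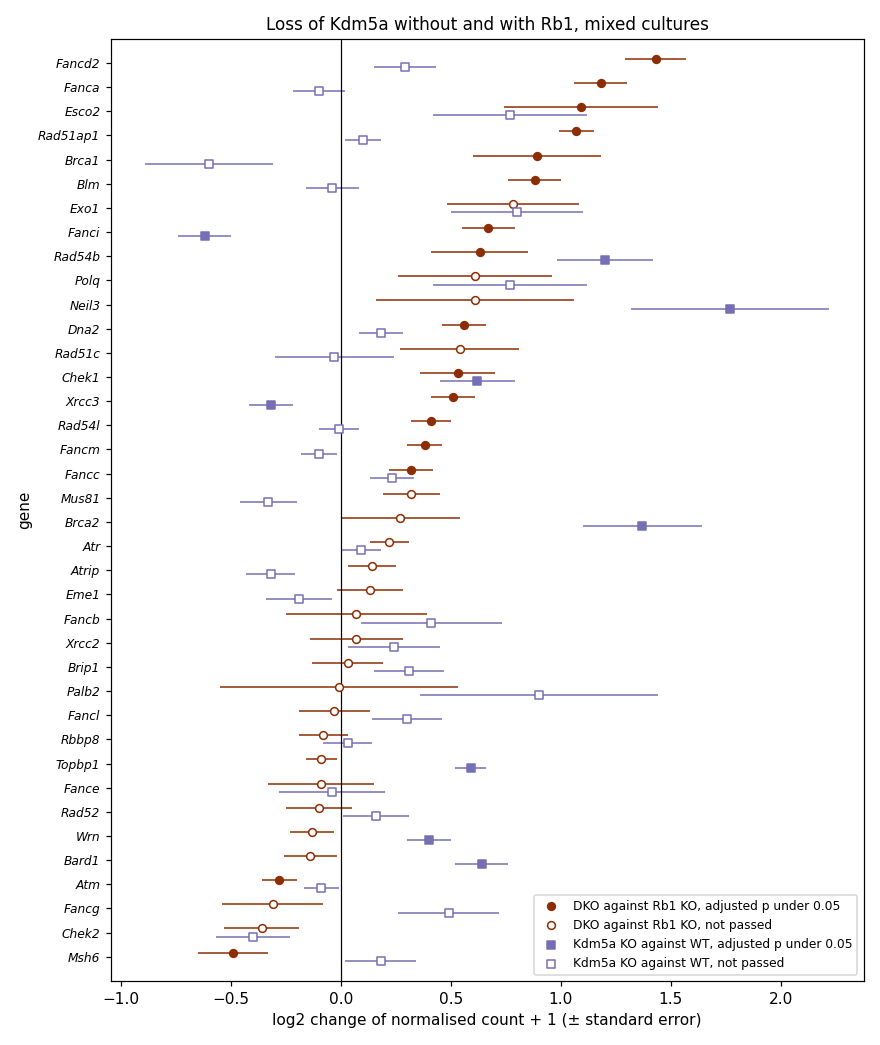
Log2 change ± standard error of each of the 38 genes for DKO against Rb1 KO (circles) and Kdm5a KO against WT (squares), with filled symbols for an adjusted p under 0.05. Fancd2, Fanca and Rad51ap1 lie right of 1 for DKO against Rb1 KO and near 0 for Kdm5a KO against WT, and the Fanci symbols lie on opposite sides of 0.

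The interaction asks whether the change with Rb1 loss differed between cells without and with Kdm5a, as (DKO minus Kdm5a KO) minus (Rb1 KO minus WT). It passed for 17 members, 12 positive and 5 negative (median -0.04, and -0.16 over the 20 members whose exons overlap no other gene), where 18.8% of all genes were positive and 19.5% negative (38.3% in either direction). The 3 smallest p-values were those of Rad51ap1 at 0.98 ± 0.12 (limma adjusted p = 3.21e-05), Fanci at 1.29 ± 0.17 (adjusted p = 9.84e-05) and Fanca at 1.28 ± 0.18 (adjusted p = 0.000109), each with a larger rise in cells without Kdm5a. By Xist and Ddx3y those cells were female and the cells with Kdm5a male, so Kdm5a loss and sex cannot be told apart in the interaction. Fancd2 (1.14 ± 0.20), Blm (0.92 ± 0.17), Brca1 (1.49 ± 0.41, a call lost by DESeq2 at 1.43, adjusted p = 0.0564), Fancm (0.49 ± 0.11) and Xrcc3 (0.83 ± 0.15) were positive too. Topbp1 (-0.68 ± 0.10), Bard1 (-0.78 ± 0.17), Brca2 (-1.10 ± 0.38), Wrn (-0.53 ± 0.14) and Msh6 (-0.67 ± 0.22) were negative, rising less in cells without Kdm5a. The Brca2 call was lost without either DKO library, either Rb1 KO library, Kdm5a KO replicate 1 or WT replicate 1 (-1.13 to -0.59), that of Wrn without DKO replicate 2 (-0.50), and that of Msh6 without either DKO library, Rb1 KO replicate 1, Kdm5a KO replicate 2 or WT replicate 1 (-0.68 to -0.39). The total of 17 was 11 without DKO replicate 1 and 10 without DKO replicate 2.

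In purified myotubes, 26 of the 38 genes rose in DKO against WT and none fell (median 2.28), where 21% of 16670 genes rose and 18.6% fell (39.6% in either direction, median -0.05). All 38 passed the filter on low values, 4 of them (Esco2, Exo1, Neil3 and Polq) with a purified WT mean under 10. Those 4 could pass through DKO, where they were high. By edgeR and DESeq2 on recovered reads the falls were likewise 0, as they were at an unadjusted limma p under 0.05. The count of all genes called, 6598, was 11574 and 10310 without DKO replicate 1 and 2, and 1983 and 2170 without WT replicate 1 and 2. Brca1 read 1531.9 and 1067.4 in DKO, against 18.6 and 7.5 in WT, and rose by 6.64 ± 0.48 (limma adjusted p = 0.00145). Brca2 read 686.3 and 513.8 in DKO and 18.6 and 39.8 in WT, Rad51ap1 2576.0 and 2507.3 in DKO and 401.9 and 296.9 in WT, and both rose, by 4.40 ± 0.43 and 2.88 ± 0.23 (adjusted p = 0.00252 and 0.00165). The purified DKO and WT libraries did not overlap for these 3 genes.

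Among the resection genes Dna2 read 2865.4 and 2249.9 in purified DKO, against 107.9 and 110.6 in purified WT, a rise of 4.53 ± 0.22 (limma adjusted p = 0.000902). Exo1 read 660.3 and 453.1 in DKO and 1.9 and 0.0 in WT, or 839 reads against 1 (ratio 717, 95% counting interval 128 to 28359.6). Neil3 had 431 reads in DKO and none in WT, which is at least 123-fold higher with 3 reads over the group as the floor. Esco2 read 473.2 and 139.2 in DKO and 1.9 and 0.0 in WT, with the DKO libraries far apart. Fancd2 read 1022.9 and 914.6 in DKO and 98.6 and 137.9 in WT (change 3.04 ± 0.26, adjusted p = 0.00191), and Topbp1 3063.8 and 2600.5 in DKO and 219.5 and 210.0 in WT (3.71 ± 0.20, adjusted p = 0.000984). Blm read 993.6 and 648.8 in DKO and 134.0 and 125.5 in WT (2.62 ± 0.29, adjusted p = 0.00322).

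With n = 2 against 2 in this fit, leaving out 1 library means that a gene's spread comes from the other group's pair alone. Several calls changed in such fits, many of them at similar changes. Fanca (1.96 ± 0.26), Fancm (1.35 ± 0.26), Fancg (2.34 ± 0.32), Fancl (1.79 ± 0.36), Xrcc2 (1.22 ± 0.29) and Atm (1.10 ± 0.26) lost the call without either WT library, with changes of 1.91 to 2.02, 1.34 to 1.36, 2.33 to 2.35, 1.64 to 1.94, 0.96 to 1.48 and 0.98 to 1.21. Wrn lost it without WT replicate 1 (2.07) and Chek1 without WT replicate 2 (1.98). In the other direction, Fanci and Fance passed without either DKO library (0.36 and 0.47, 0.78 and 0.55), as did Rbbp8 (0.67 and 1.80) and, as a fall, Xrcc3 (-0.41 and -0.31). Mus81 passed without DKO replicate 1 (0.83), and Atr (1.16) and Eme1 (0.35) without DKO replicate 2. Chek2, whose call was not reached, read 143.1 and 157.0 in DKO against 195.3 and 218.6 in WT, a difference of -0.46 ± 0.24 (limma adjusted p = 0.186).

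**Figure D4:**
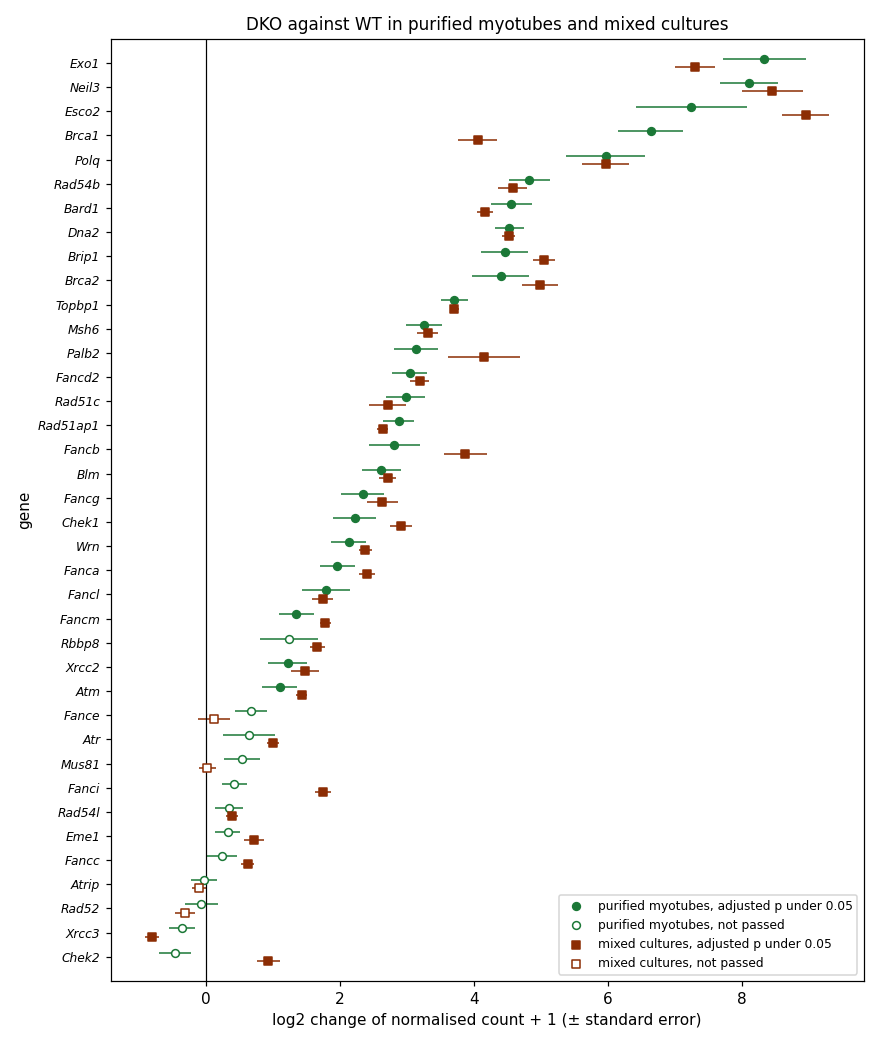
Log2 change ± standard error of each of the 38 genes in DKO against WT, in purified myotubes (circles) and mixed cultures (squares), with filled symbols for an adjusted p under 0.05. The symbols of most genes lie close together, and Brca1, Fanci and Chek2 are the 3 whose difference between preparations passed.

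The DKO effect was then compared between preparations, as the purified minus the mixed change, in a fit of all 12 libraries. It passed for 3 members, 1 positive and 2 negative (median -0.20), where 11.6% of 17273 genes were positive and 13.2% negative (24.8% in either direction). Fanci differed by -1.32 ± 0.19 (limma adjusted p = 0.00112) and Chek2 by -1.39 ± 0.24 (adjusted p = 0.00288), while Brca1 differed by 2.58 ± 0.61 (adjusted p = 0.0129), with the larger DKO change in purified myotubes. Fanci read 788.8 and 811.2 in purified WT myotubes and 287.2 and 289.9 in WT mixed cultures, while Brca1 read 18.6 and 7.5 there and 84.9 and 126.8 in mixed cultures. The Brca1 call was lost without WT mixed replicate 2 (2.29, limma adjusted p = 0.0535). The count of 3 was 13 without purified DKO replicate 1 and 6 without replicate 2, and the count of all genes, 4292, was 8989 and 6615 without those, 2800 without purified WT replicate 1 and 2471 and 2479 without mixed DKO replicate 1 and 2. RNA selection, read length, trypsin and recovery differ between the preparations too, so their levels were not tested against each other.

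Reads shared with a neighbouring gene bear on 18 of the 38 genes, since their exons overlap those of other annotated genes. Fanci shares 921 of 5774 exon bases with Polg, the mitochondrial DNA polymerase, which read 1077.8 and 1191.5 in DKO, 1332.7 and 1123.2 in Rb1 KO, 711.7 and 812.8 in Kdm5a KO, and 1258.7 and 1241.8 in WT mixed cultures. In purified myotubes Polg read 1878.3 and 1911.9 in DKO and 3088.3 and 2924.4 in WT. Polg and Fanci thus were both lowest in Kdm5a KO among mixed cultures, and both read higher in purified than in mixed WT. Within purified myotubes Fanci read higher in DKO (1107.5 and 1029.7) than in WT (788.8 and 811.2), while Polg read lower in DKO. The part of shared reads in these values was not tested. Among the 20 genes that share no exon, 19 rose and none fell in Rb1 KO against WT, 19 rose and 1 fell in DKO against Kdm5a KO, 6 rose and 1 fell in DKO against Rb1 KO, and 18 rose and none fell in purified DKO against WT. Of all genes in the main fits, 36.8%, 33.7%, 23.1% and 21% rose in those comparisons, in that order, and 34.3%, 33.4%, 24.2% and 18.6% fell.

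**Figure D5:**
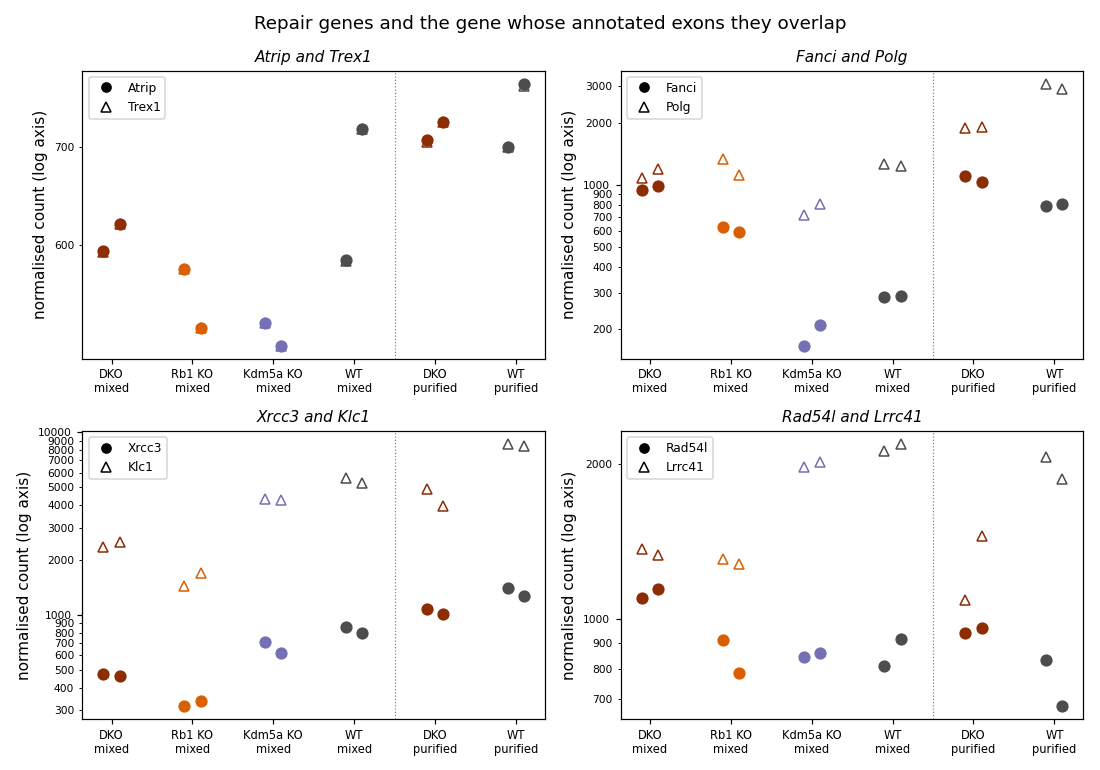
Normalised count (log axis) in each library for 4 repair genes (filled circles) and the gene whose exons they overlap (open triangles), with 2 libraries a group. Atrip and Trex1 coincide, Xrcc3 and Klc1 keep the same order of groups in mixed cultures, and Polg and Lrrc41 differ from Fanci and Rad54l in theirs.

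Per kb of exon, the order of the members changed with Rb1. In WT mixed cultures Xrcc3 was highest at 299 normalised counts per kb, followed by Mus81 at 121, Rad51ap1 at 119, Atm at 115 and Rad54l at 112, while Exo1, Esco2 and Neil3 were lowest at 0.395, 0.25 and 0.192. In Rb1 KO cultures Msh6 led at 487, followed by Atm at 375, Topbp1 at 368, Dna2 at 359 and Rad51ap1 at 353, and Palb2 was lowest at 22.6. In DKO cultures Rad51ap1 (744) and Dna2 (528) led. Purified WT myotubes had Xrcc3 (486), Eme1 (203), Fanci (139), Mus81 (112) and Atrip (103) on top, and Brca1 at 1.53. The top 5 all share exons with a neighbour, but to unlike extents. The shared part of their exon bases was 0.436% for Xrcc3, 4.85% for Mus81, 10.7% for Eme1 and 16% for both Fanci and Atrip. The 16% of Atrip does not measure its shared reads, since its reads equalled those of Trex1 within 2 in every library. Its level per kb is thus that of the pair.

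The rest of the recombination and Fanconi pathway moved in part. Of 54 further genes listed, 52 were tested, and 31 rose and 8 fell in Rb1 KO against WT (median 0.74), 34 rose and 9 fell in DKO against Kdm5a KO (median 0.96), and 26 rose and 4 fell in purified DKO against WT (median 1.18). The single-strand binding subunit Rpa1 rose by 3.13 ± 0.09 in Rb1 KO against WT (limma adjusted p = 9.59e-12), Fignl1, an ATPase of the recombination pathway, by 3.80 ± 0.13 (adjusted p = 7.3e-11) and the fork protection factor Tipin by 2.63 ± 0.10 (adjusted p = 1.28e-10). Other repair routes gave other counts in the same comparison. Of 12 end-joining genes 8 rose and 2 fell (median 0.52), led by Rif1, which restrains resection, at 3.26 ± 0.06 (adjusted p = 3.9e-13). Of 20 mismatch and base excision genes 13 rose and 6 fell (median 0.63). Of 16 nucleotide excision genes 3 rose and 11 fell (median -0.70). Over all genes, 36.8% rose and 34.3% fell in Rb1 KO against WT (71.1% in either direction). The shares were 33.7% and 33.4% in DKO against Kdm5a KO, and 21% and 18.6% in purified DKO against WT.

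Markers of cell state moved with Rb1 as well, and their part in the changes of the repair genes was not tested. Of 33 proliferation markers 32 rose and none fell in Rb1 KO against WT (median 4.33), with sums of 82676.4 and 84275.7 in DKO, 52370.7 and 47724.3 in Rb1 KO, 7697.3 and 8099.8 in Kdm5a KO, and 7150.1 and 6916.9 in WT. All 20 skeletal muscle markers fell in Rb1 KO against WT (median -3.16), with sums of 80462.0 and 80221.1 against 545005.4 and 514542.4, and 18 of the 20 rose in DKO against Rb1 KO (median 1.75). Of 14 fibroblast markers 13 rose and 1 fell in Rb1 KO against WT (median 2.55), with sums of 125195.5 and 142176.2 against 35560.1 and 38337.9, and none rose and 12 fell in DKO against Rb1 KO (median -2.06). In that last comparison 17 proliferation markers rose and 2 fell (median 0.52). In purified myotubes the proliferation sum was 102403.9 and 102347.4 in DKO and 8861.3 and 8983.3 in WT, and that of muscle markers 283384.2 and 303284.4 in DKO and 815964.0 and 790838.0 in WT. Purified fibroblast marker sums were 44939.3 and 62759.6 in DKO (28364.5 and 29025.0 in mixed cultures) and 68875.8 and 74301.1 in WT. Purified smooth muscle marker sums were 22069.6 and 36184.7 in DKO (mixed 19146.4 and 18869.1) and 108789.9 and 116516.6 in WT (mixed 40634.3 and 41010.3). Neither sum was lower in purified than in mixed libraries of a genotype, and the source was not tested. Of 20 p53 target genes, which DNA damage can induce, 16 rose and 4 fell in Rb1 KO against WT (median 1.48), and 5 rose and 12 fell in DKO against Rb1 KO (median -0.49). Of 6 smooth muscle markers 3 rose and 2 fell in Rb1 KO against WT, of 5 macrophage and blood markers tested 3 rose and 1 fell, and of 5 endothelial markers tested 2 rose and 2 fell. Over all genes, 36.8% rose and 34.3% fell in Rb1 KO against WT, and 23.1% and 24.2% in DKO against Rb1 KO. Adipocyte and epithelial markers were near absent, with 1 of 6 listed tested in each in mixed cultures (the adipocyte one fell in Rb1 KO against WT and the epithelial one did not pass) and sums of at most 79.7 in any library.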

How the data were processed

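RNA-seq of 12 mouse libraries in 6 groups of 2 was used. The deposited values are a signal per gene identifier: reads divided by a size factor by the authors, with TopHat 1.2.0, DESeq and mm9 named per the submitters' processing notes, while the read counter and annotation release are not given in the sources used here. Every value was a whole number of reads within 0.01 once the size factor was undone, with 8688604 to 41309134 reads a library. Symbols came from GENCODE M21 for 30983 of 36229 identifiers (85.5%), and identifiers with none held at most 2.83% of reads.

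Genes with a mean of at least 10 were tested on log2(value + 1) with limma 3.58.1 (R 4.3.3), in 1 fit of the 8 mixed libraries, 1 of the 4 purified and 1 of all 12 for their difference. Calls used an adjusted p under 0.05. edgeR 4.0.16 and DESeq2 1.42.0 on recovered reads were alternatives, among 24 in all, 12 of them leaving out a library. The code was tested on simulated data. Replicate numbers did not pair libraries. The 38 members and all other lists were chosen with earlier results of these data known. Every library's value is printed for anchors of each role, the extremes of each role in Rb1 KO against WT, members that fell, members called in Kdm5a KO against WT and the 3 of smallest p in each difference of changes. Of 54 further pathway genes 52 matched. Intervals cover counting error only. 1 further pathway gene is not reported here.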

Additional observations from a re-analysis of the deposited data

Results flagged for a closer look

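The change with loss of Rb1 differed between cells without and with Kdm5a, by limma's test of the interaction, in 17 of the 38 genes, beside 38.3% of all 17199 genes tested. It was larger without Kdm5a for Brca1 (1.49), Fanci (1.29), Fanca (1.28), Fancd2 (1.14), Rad51ap1 (0.98), Blm (0.92), Xrcc3 (0.83), Mus81 (0.64), Fancm (0.49), Atrip (0.45), Rad54l (0.42) and Dna2 (0.38), where for Xrcc3 larger means a smaller fall. It was smaller for Brca2 (-1.10), Bard1 (-0.78), Topbp1 (-0.68), Msh6 (-0.67) and Wrn (-0.53). Each change was taken within 1 sex, and the sexes differ between the changes compared, so Kdm5a loss and sex cannot be told apart here.

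The calls of Mus81, Rad54l, Atrip and Dna2 were each lost without 1 of several single libraries, at 0.51 to 0.66, 0.32 to 0.45, 0.31 to 0.48 and 0.27 to 0.39. Dna2 also lost it with TMM scaling (0.36, adjusted p = 0.0572), with no filter on the mean (0.38, adjusted p = 0.0616), by edgeR (0.35, adjusted p = 0.0625) and by DESeq2 (0.39, adjusted p = 0.0544), and Brca1 lost it by DESeq2 (1.43, adjusted p = 0.0564). With no filter on the mean, Atrip, Msh6 and Brca2 lost it too (adjusted p = 0.0591, 0.0673 and 0.0751). The value of Atrip is that of the Atrip and Trex1 pair.

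The DKO effect differed between purified myotubes and mixed cultures for Brca1 (2.58), Chek2 (-1.39) and Fanci (-1.32). The preparations also differ in RNA selection and read length.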

How the results depend on the processing

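With 1 library left out, the members called numbered 32 to 34 in Rb1 KO against WT, 33 to 37 in DKO against Kdm5a KO, 9 to 21 in DKO against Rb1 KO, 34 in DKO against WT, 7 to 15 in Kdm5a KO against WT, 10 to 18 for the interaction, 19 to 32 in purified DKO against WT and 2 to 13 for purified minus mixed. Over all genes the ranges were 3057 to 4697 in Kdm5a KO against WT, 1983 to 11574 in purified DKO against WT and 2471 to 8989 for purified minus mixed. In the other comparisons too, DKO against Rb1 KO and the interaction among them, the count of all genes called moved with a library left out. Whether the member counts shifted as those of all genes did was not tested. Fitting only the contrasted groups called 25 members in DKO against Rb1 KO and 4 in Kdm5a KO against WT. Leaving out members that share exons, an alternative chosen after seeing the data, leaves 20 genes, of which 19 were called in Rb1 KO against WT, 20 in DKO against Kdm5a KO, 7 in DKO against Rb1 KO, 19 in DKO against WT, 5 in Kdm5a KO against WT and 7 for the interaction. In the main fits 71.1%, 67.2%, 47.3%, 67.9%, 27.2% and 38.3% of all genes were called in those comparisons, in that order. Signs turned, with libraries left out, for genes that did not pass: in Rb1 KO against WT Rad54l (-0.13 to 0.08) and Fance (-0.16 to 0.58), in DKO against WT Fance (-0.25 to 0.49), Mus81 (-0.10 to 0.15) and Atrip (-0.24 to 0.05), and in purified DKO against WT Atrip (-0.11 to 0.04, and 0.01 by edgeR) and Rad52 (-0.24 to 0.10). The cause was not tested. A replicate block left the counts of members at 33, 36, 16, 34, 9, 17 and 3 in the 7 comparisons with mixed libraries and gave 27 in place of 26 in purified DKO against WT (Rbbp8, 1.24), although correlations of -0.05 to 0.05 did not pair the libraries. The single pair of libraries in each group limits all of these fits.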
